A study of Mus musculus with 64 samples.

Results

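SOX2 binding was compared between 2 states of mouse embryonic stem cells in which SOX2 is high, SOX2-ON cells and naive embryonic stem cells (naive ESC). The libraries were chosen by their labels, as those immunoprecipitated with an antibody to SOX2 in these conditions. They were 6 of the 60 libraries with a peak list, among 64 samples in all, with 3 biological replicates per condition. Naive ESC were wild-type cells of the XY HM1 TetON line, of strain 129 origin, kept undifferentiated in 2i, which is N2B27 medium with 3 µM CHIR99021, an inhibitor of GSK3 that activates WNT signalling, and 500 nM PD0325901, an inhibitor of MEK. SOX2-ON cells were of the SOX2-TetON genotype, made from the same line. In these cells endogenous Sox2 had been ablated by gene editing, and a Sox2 cDNA at the HPRT locus was switched on by doxycycline through the rtTA activator, which was made constitutively from Rosa26. The edited cells were picked and expanded as clones, and the sources used here do not say how many clones stand behind the 3 libraries. SOX2-ON cells were differentiated for 2 days in N2B27 with 10 ng/ml bFGF and 5 µM LGK974, an inhibitor of WNT secretion. They then received CHIR99021 as well until day 3, with 1 µg/ml doxycycline throughout. The labels give 72 h as the time point of both groups. The groups therefore differ in developmental state, genotype, clone, medium and doxycycline together, and the contributions of these cannot be told apart.

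SOX2 is a transcription factor with a high-mobility-group (HMG) domain that bends DNA at short elements such as CATTGT and CTTTGT. In pluripotent cells it often binds beside OCT4 (gene Pou5f1) at a composite OCT-SOX element, and in neural progenitors it works with other partners. β-catenin carries the WNT signal to chromatin but does not bind DNA itself, and it is held there by the HMG proteins LEF1, TCF7L1 and TCF7L2. Naive pluripotency rests on a network of factors such as ESRRB, KLF2, KLF4, TFCP2L1 and NANOG, which is taken down as cells move towards the epiblast. The comparison asks how far the sites of a highly expressed factor depend on the state of the cell.

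Binding was read from the peak list deposited for each library. A peak is an interval in which immunoprecipitated reads exceed the local background. Its strength is given here as the deposited fold, the ratio of signal to that background. The lists of SOX2-ON held 93312, 105448 and 232446 peaks for replicates 1, 2 and 3. Those of naive ESC held 907862, 136687 and 107016. The log10 number of peaks was 5.12 ± 0.215 (SD, n = 3) in SOX2-ON and 5.37 ± 0.508 (SD, n = 3) in naive ESC, a difference of -0.25 (two-sided exact permutation test, p = 0.5). Leaving out naive ESC replicate 1 turned this difference to 0.04. The smallest p that such an exact permutation test can give with 3 libraries per group is p = 0.1. The lists hold no read counts, so read depth is unknown and no counting interval can be given. Each list was therefore shortened to its 20000 strongest peaks by the deposited p-value. Overlapping peaks of the 6 lists (by 1 bp or more) were joined into 64354 sites. A site called only in SOX2-ON had a peak in all 3 SOX2-ON lists and in no naive ESC list, a site only in naive ESC the reverse, and a shared site a peak in all 6. Naive ESC replicate 1 stood apart in list length and overlap, so leading counts are also given without it.

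The strongest sites found in 1 condition alone show what such binding looks like in sequence. The sequences run from 100 bases before to 100 bases after the strongest summit, on the plus strand of GRCm38 (mm10), read 5′ to 3′. Capitals mark the SOX elements CATTGT and CTTTGT on either strand. Each line is named by the protein-coding gene with the nearest start. The last of each set is the strongest site of a listed gene, and the others were among the highest by median fold of the sites with no peak in any full list of the other condition. The first set is SOX2-ON.
Fhit, chr14:9885575-9885775, only in SOX2-ON: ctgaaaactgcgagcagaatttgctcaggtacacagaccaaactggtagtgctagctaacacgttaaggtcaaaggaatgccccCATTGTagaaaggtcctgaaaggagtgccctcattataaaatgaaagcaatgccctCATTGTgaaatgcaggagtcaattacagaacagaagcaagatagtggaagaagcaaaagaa
Pcdh9, chr14:91535134-91535334, only in SOX2-ON: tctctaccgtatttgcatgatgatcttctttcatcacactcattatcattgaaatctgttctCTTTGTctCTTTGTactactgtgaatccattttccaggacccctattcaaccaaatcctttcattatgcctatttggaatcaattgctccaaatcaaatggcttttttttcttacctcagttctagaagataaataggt
Sall2, chr14:52331180-52331380, only in SOX2-ON: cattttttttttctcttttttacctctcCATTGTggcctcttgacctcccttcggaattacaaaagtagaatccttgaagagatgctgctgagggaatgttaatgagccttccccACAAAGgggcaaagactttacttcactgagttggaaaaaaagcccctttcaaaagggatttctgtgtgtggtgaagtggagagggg
The second set is naive ESC.
Rbbp5, chr1:132471117-132471317, only in naive ESC: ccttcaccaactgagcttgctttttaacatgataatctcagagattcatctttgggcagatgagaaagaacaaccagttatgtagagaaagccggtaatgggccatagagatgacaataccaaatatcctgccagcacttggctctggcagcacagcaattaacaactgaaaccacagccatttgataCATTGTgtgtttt
Efcab3, chr11:104944809-104945009, only in naive ESC: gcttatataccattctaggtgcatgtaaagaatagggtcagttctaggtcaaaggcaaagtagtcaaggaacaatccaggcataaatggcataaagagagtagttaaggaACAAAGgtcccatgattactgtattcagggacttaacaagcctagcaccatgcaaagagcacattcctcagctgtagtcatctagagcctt
Rtn4, chr11:29642260-29642460, only in naive ESC: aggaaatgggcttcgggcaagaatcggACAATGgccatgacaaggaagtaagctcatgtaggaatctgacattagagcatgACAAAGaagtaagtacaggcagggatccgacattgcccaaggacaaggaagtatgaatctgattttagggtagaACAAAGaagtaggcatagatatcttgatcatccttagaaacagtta
Zfp42, chr8:43320691-43320891, only in naive ESC: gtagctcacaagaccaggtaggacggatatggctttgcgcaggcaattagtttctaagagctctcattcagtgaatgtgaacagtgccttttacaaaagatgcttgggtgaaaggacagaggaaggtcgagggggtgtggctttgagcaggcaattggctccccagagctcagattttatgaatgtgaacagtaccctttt
A SOX element lies within this window at each of these sites except Zfp42, whose window holds none of these letters. Of the 5 strongest sites per condition with no peak in the other condition's full lists, 4 held a SOX element in SOX2-ON and 4 in naive ESC.

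The Fhit site lay in an intron of Fhit (ENSMUSG00000060579.13), 535922 bp from its start, at chr14:9885397-9886043, and had folds of 43.6, 30.3 and 42.3 in SOX2-ON replicates 1 to 3. The site nearest to Pcdh9 (ENSMUSG00000055421.8), a protocadherin, was far from any gene start, at 2353498 bp, with folds of 26.9, 29.0 and 29.6 at chr14:91534662-91535390. Neither site had a peak in any naive ESC list, nor among the 20000 strongest of a CEpiLC or SOX2-OFF SOX2 library, the cells with low SOX2 described further on. Lists of β-catenin, LEF1, TCF7L1 and TCF7L2 were cut to equal length per target, at 1626 to 4443 peaks. In these cut lists the Pcdh9 site also held β-catenin, LEF1 and TCF7L1 peaks in 3 of 3 SOX2-ON libraries each and in 0 of 3 naive ESC libraries. The same cut lists are used at every named site below, so a missing peak there is not absence of signal. Other sites named by the same rule lay 2925 bp from Nkx2-9, a homeobox gene of the ventral neural tube, with folds of 28.2, 20.9 and 28.9, and in an intron of A430078G23Rik, with folds of 25.7, 26.6 and 19.8.

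Among sites only in naive ESC, the one nearest to Rbbp5 (ENSMUSG00000026439.14), a subunit of histone H3 lysine 4 methyltransferase complexes, had folds of 14.8, 53.4 and 41.2 in replicates 1 to 3, at chr1:132470969-132471533. The site nearest to Efcab3 lay in an intron of Gm11639 at chr11:104944527-104945198 and had folds of 29.8, 40.1 and 64.1. The site near Rtn4 (ENSMUSG00000020458.16), a reticulon of the endoplasmic reticulum, lay at chr11:29641923-29642769 with folds of 23.2, 39.7 and 43.3. Replicate 1 gave the lowest of the 3 values at each of these. The Rbbp5 and Efcab3 sites held β-catenin and TCF7L1 peaks in all 3 naive ESC libraries and in 0 of 3 SOX2-ON ones. The same held for the other sites named by the rule, in an intron of Rtf1 nearest to Itpka, with SOX2 folds of 38.0, 43.2 and 36.5, and near Zscan2, with 22.2, 33.9 and 34.1. At the Rtn4 site β-catenin was listed in 2 of 3 naive ESC libraries and TCF7L1 in 0 of 3.

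Over the whole lists, a library was closer to its own condition than to the other one. The overlap of a pair was measured as the Jaccard index, the shared base pairs over the union. It was 0.283 on average within a condition and 0.156 between conditions, a difference of 0.127 (one-sided exact permutation test over 10 splits, p = 0.1, the smallest possible). SOX2-ON pairs gave 0.293 to 0.319. Naive ESC replicates 2 and 3 shared 0.362, whereas replicate 1 shared 0.211 and 0.203 with them. Between conditions the index ran from 0.123 to 0.181, with the lowest values for naive ESC replicate 1. The difference between the means was 0.201 with the 2000 strongest peaks and 0.0329 with all deposited peaks, so its size depended on the list length. With 20000 peaks every library had a higher mean index with its own condition than with the other.

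Sites only in SOX2-ON numbered 2598, which is 4.04% of all merged sites, and sites only in naive ESC numbered 1806, or 2.81%. Shared sites numbered 2704, or 4.20%. Most merged sites had a peak in a single list, 18659 of them in 1 SOX2-ON list and 21733 in 1 naive ESC list. Which condition had more sites of its own changed with the libraries used. Leaving out a library also asks for peaks in fewer libraries of its condition than of the other, which by itself raises counts. How much of the change came from this easier rule was not tested. Without naive ESC replicate 1 the counts were 2887 for SOX2-ON, 4457 for naive ESC and 3669 shared, and without SOX2-ON replicate 3 the count for SOX2-ON was 4033. No order of the counts is therefore given. Absence among the strongest peaks is not absence of signal. Of the sites only in SOX2-ON, 24.4% (635) had no peak in any full naive ESC list, and of those only in naive ESC 39.1% (706) had none in any full SOX2-ON list. The full list of naive ESC replicate 1, the longest, held a peak at 63.4% of the sites only in SOX2-ON, against 35.4% and 24.9% for replicates 2 and 3.

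**Figure D1:**
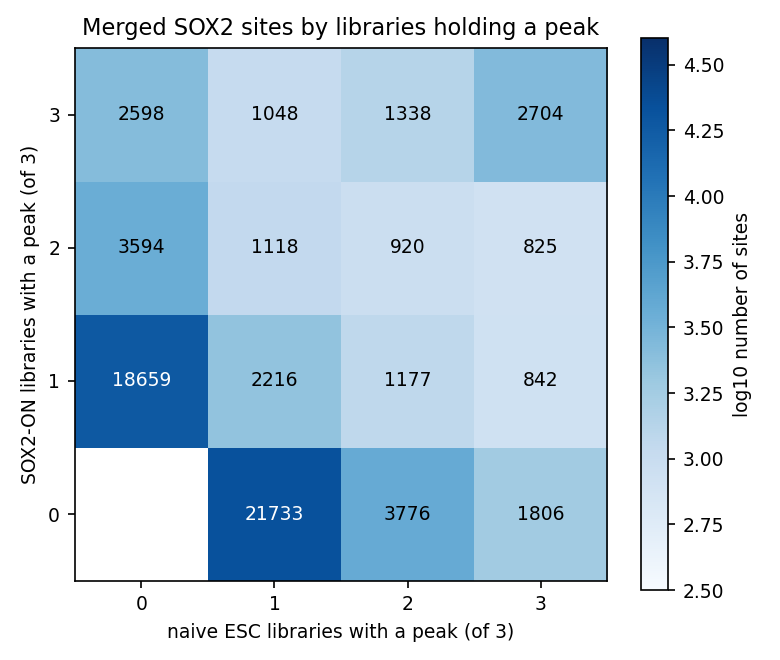
Number of merged SOX2 sites by how many of the 3 SOX2-ON lists (vertical axis) and of the 3 naive ESC lists (horizontal axis) held a peak, with the colour giving the log10 number of sites. The corners hold the 2598 sites only in SOX2-ON, the 1806 only in naive ESC and the 2704 shared sites, and the highest counts are those of sites with a peak in a single list.

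Sites of either condition were weaker than shared sites. The median fold at sites only in SOX2-ON was 9.91, 9.68 and 11.4 in the 3 SOX2-ON libraries, where shared sites had 12.5, 12.8 and 15.7. At sites only in naive ESC it was 13.6, 11.1 and 10.8 in the naive ESC libraries, where shared sites had 17.7, 16.4 and 15.3. Each library gave the same order. These values describe the lists the sites were chosen from.

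Sites only in SOX2-ON lay farther from gene starts than the other classes, while the shares in introns and between genes were close. Introns held 44.0% of sites only in SOX2-ON and 44.8% of those only in naive ESC, and 53.3% and 51.2% lay between genes. The median distance to the nearest protein-coding start was 55154 bp for sites only in SOX2-ON, 21445 bp for those only in naive ESC and 25028.5 bp for shared sites. Within 50000 bp of a start lay 48.1%, 72.3% and 65.2% of them. Within 1000 bp lay 5.23%, 5.81% and 12.4%, so shared sites were the class with the highest share at promoters. The share of a library's 20000 summits within 1000 bp of a start was 13.3%, 10.7% and 14.1% in SOX2-ON and 11.5%, 10.7% and 11.3% in naive ESC. The groups overlapped, with means of 12.7 ± 1.79% and 11.2 ± 0.400% (SD, n = 3 each; two-sided exact permutation test, p = 0.4). With the 2000 strongest peaks the difference turned from 1.53 to -2.02 percentage points.

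Cells with low SOX2 share elements of the SOX2-ON protocol and had no part in choosing the sites. Caudal epiblast-like cells (CEpiLC) are wild-type cells taken through the same differentiation, and SOX2-OFF cells are SOX2-TetON cells without doxycycline. Their lists were also cut to the 20000 strongest peaks. In the 3 CEpiLC SOX2 libraries 17.3 ± 3.89% (SD, n = 3) of sites only in SOX2-ON were overlapped, against 17.3 ± 1.86% of those only in naive ESC and 70.6 ± 4.82% of shared sites. In the 3 SOX2-OFF libraries the shares were 11.0 ± 2.25%, 10.2 ± 2.84% and 54.2 ± 6.77%. Both condition-specific classes were thus overlapped to a like extent, well below the shared sites. In 0 of these 6 libraries was there a peak at 67.9% of sites only in SOX2-ON, at 65.9% of sites only in naive ESC and at 14.4% of shared sites. The balance changed when sites were chosen without naive ESC replicate 1, which also eased the rule for sites of naive ESC. The log2 odds of overlap with sites only in SOX2-ON minus those with sites only in naive ESC were -0.01 ± 0.199 in CEpiLC and 0.14 ± 0.182 in SOX2-OFF, and became 0.42 and 0.49 when sites were chosen without that library.

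Some elements under the summits had shares that set the libraries of the 2 conditions apart, although no exact permutation test gave an adjusted p under 0.167. Windows of 100 bp to each side of the 20000 strongest summits were searched on both strands, and windows 5000 bp away served as background. A SOX element was present at 61.4%, 62.2% and 58.3% of SOX2-ON summits and at 47.4%, 57.6% and 55.8% of naive ESC summits, against 27.0% in the background. All SOX2-ON libraries were above all naive ESC libraries, and replicate 1 was the lowest of the naive ESC libraries. The difference was 7.07 percentage points (two-sided exact permutation test, p = 0.1, adjusted p = 0.167 over 10 motifs), and 3.99 without that replicate, the lowest value when 1 library was left out.

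The element AAGGTCA, bound by ESRRB and other orphan nuclear receptors, was present at 3.96%, 3.98% and 3.94% of SOX2-ON summits and at 7.21%, 8.76% and 8.95% of naive ESC summits. In SOX2-ON it stood at the background of 3.93%, and every naive ESC library was above that. The difference was -4.35 percentage points (two-sided exact permutation test, p = 0.1, adjusted p = 0.167). It was -2.19 within 50 bp of the summits and -6.97 with the 2000 strongest peaks. The KLF element GGGNGTGG averaged 8.61% in SOX2-ON and 10.6% in naive ESC, the ZIC element CAGCAGG 10.5% and 13.4%, and the T-box element GGTGTG 11.9% and 14.9%, against backgrounds of 5.75%, 4.90% and 13.4%. For each of these 3 elements all naive ESC libraries lay above all SOX2-ON libraries, with the same p as for AAGGTCA. T-box windows were thus below their background in SOX2-ON and above it in naive ESC.

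The composite OCT-SOX element, which is a SOX element followed by any base and ATGC and so also counts as SOX, gave overlapping groups. It was present at 1.39%, 1.89% and 1.55% of SOX2-ON summits and at 1.27%, 2.27% and 2.06% of naive ESC summits, against 0.0792% in the background (two-sided exact permutation test, p = 0.5). The OCT element ATGCAAAT averaged 3.80% and 4.02% (background 1.33%, exact permutation p = 0.8). The TCF elements CTTTGAA and CTTTGAT, which LEF1 and the TCF proteins recognise, averaged 14.2% and 13.1% (background 8.44%, exact permutation p = 0.4). The OTX element GGATTA averaged 7.67% and 6.97%, below its background of 8.78% (exact permutation p = 0.2). The CDX elements TTTATGG and TTTATTG averaged 6.42% and 6.09%, also below their background of 7.84%, although all SOX2-ON libraries were above all naive ESC libraries (exact permutation p = 0.1, adjusted p = 0.167). Windows of SOX2-ON had a mean GC content of 47.3%, those of naive ESC 48.5% and the background 43.8%. The part of GC content in the motif differences was not tested.

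Several of these elements also differed in share between the classes of sites. The classes are built from the same peaks, so they are not a separate test. A SOX element lay at 73.2% of sites only in SOX2-ON, at 53.4% of those only in naive ESC and at 70.4% of shared sites. The element AAGGTCA lay at 2.85% of sites only in SOX2-ON and at 18.1% of those only in naive ESC, with 5.33% at shared sites and 3.85% and 3.93% in the matching windows 5000 bp away. ZIC elements lay at 8.93%, 20.5% and 15.5% and KLF elements at 6.43%, 13.2% and 9.84%, in the same order of classes. Shared sites had the highest share of OCT-SOX elements, 4.99%, against 0.924% and 1.61%. When naive ESC replicate 1 was left out of the choice of sites, AAGGTCA lay at 3.01% and 15.5% and ZIC at 9.39% and 17.3% of the sites of SOX2-ON and naive ESC. Motif matches are letters in a window and do not show that the factor was bound.

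**Figure D2:**
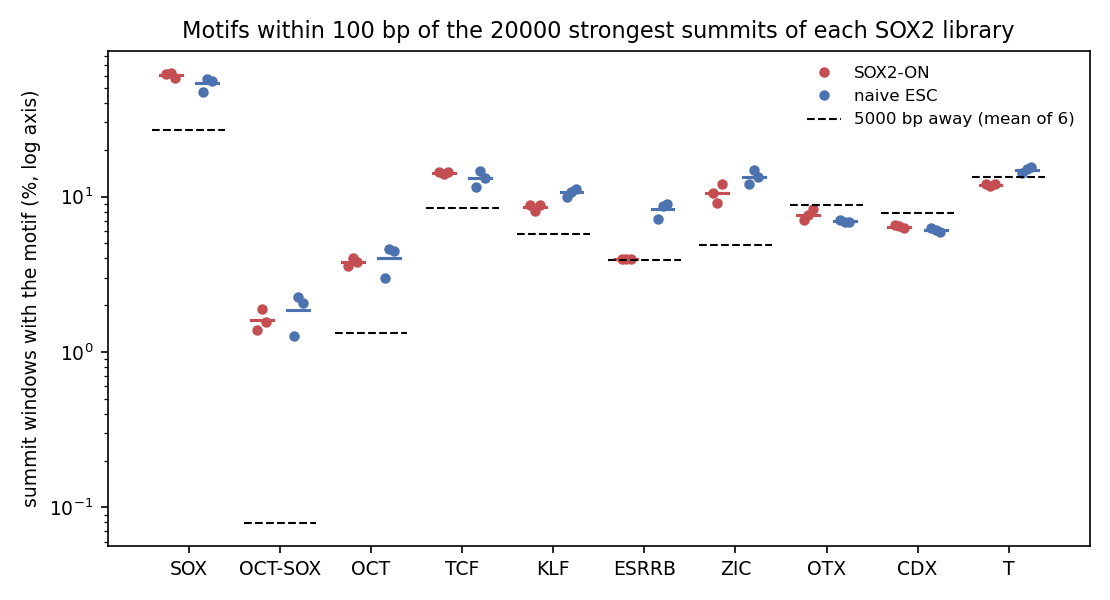
Percentage of the 20000 strongest summits of each SOX2 library with the named element within 100 bp, on a log axis, with 1 point per library, coloured bars at the mean of 3 libraries and dashed lines at the mean of the windows 5000 bp away. The 3 SOX2-ON points for ESRRB lie on the background of 3.93%, and the 3 naive ESC points lie between 7.21% and 8.95%.

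Among the 2704 shared sites, strength could be compared with all 6 libraries present. The log2 of the deposited fold was quantile normalised over these sites and tested with limma. At an adjusted p under 0.05, 290 sites (10.7%) were higher in SOX2-ON and 306 (11.3%) were higher in naive ESC, and 465 and 468 were so at an unadjusted p under 0.05. Quantile normalisation gives all libraries the same distribution over these sites, so a near balance of the directions is built into the scaling and is not a result. The counts were 171 and 202 of 2980 tested sites without SOX2-ON replicate 1 and 342 and 363 of 3669 without naive ESC replicate 1. Leaving out a library changes which sites are shared, so these counts rest on other numbers of sites. In simulated data of this size, with 50 sites changed by each of 1, -1, 2 and -2 on the log2 scale, limma recovered 32% and 26% of the differences of 1 and -1. More sites were called in the data than were changed there. The share of such differences that the counts miss is therefore not known. Replicates are biological according to the labels, which do not say what was separate, and p-values measure the spread between these libraries alone.

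The largest difference towards SOX2-ON was at a site in an intron of Slc25a21 nearest to Pax9 (ENSMUSG00000001497.18), a paired-box factor, at chr12:56887115-56887819. Its folds were 90.8, 90.1 and 103 in SOX2-ON and 24.9, 9.42 and 8.67 in naive ESC, a log2 difference of 2.87 (SE 0.33, limma adjusted p = 1.31e-06). All 4 WNT mediators had a peak there in 3 of 3 SOX2-ON libraries, β-catenin had one in 1 of 3 naive ESC libraries, and LEF1, TCF7L1 and TCF7L2 had none. The site nearest to Zfp871 followed with 40.0, 40.6 and 48.0 against 10.7, 7.90 and 5.94. Sites nearest to Rad51b and Abca13 were also among the largest, with lowest SOX2-ON folds of 29.5 and 27.8 and highest naive ESC folds of 11.1 and 9.19. The conditions did not overlap at any of these 4, which were picked by the size of their difference.

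Towards naive ESC the largest difference was at a site between genes nearest to Olfr1339, an olfactory receptor, at chr4:118740770-118742002. Its folds were 45.0, 38.0 and 52.4 in naive ESC and 5.03, 5.43 and 7.41 in SOX2-ON, a log2 difference of -2.69 (SE 0.29, limma adjusted p = 6.26e-07). It carried AAGGTCA and ZIC letters, and β-catenin had a peak there in 3 of 3 naive ESC and 0 of 3 SOX2-ON libraries. The site nearest to Ifitm2 gave 51.2, 59.3 and 57.1 against 8.83, 6.53 and 6.92. At the site in an intron of Hunk, a protein kinase, the values were 37.5, 48.0 and 29.9 against 6.05, 5.26 and 7.57. The next were the sites of Klf2, described below, and Fgd1, with 51.6, 30.4 and 36.1 against 7.57, 6.73 and 8.46. SOX2-ON values were below all naive ESC values at these sites as well, which were picked in the same way.

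Shared sites of both directions carried SOX elements often, at 78.3% of those higher in SOX2-ON, 69.9% of those higher in naive ESC and 69.4% of the rest. TCF elements were at 22.8%, 12.1% and 15.8% and AAGGTCA at 3.10%, 10.8% and 4.84%. At least 2 of 3 CEpiLC SOX2 libraries had a peak at 65.5%, 65.7% and 72.6% of them. Within 1000 bp of a start lay 5.86% of those higher in SOX2-ON, 11.8% of those higher in naive ESC and 13.3% of the rest.

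**Figure D3:**
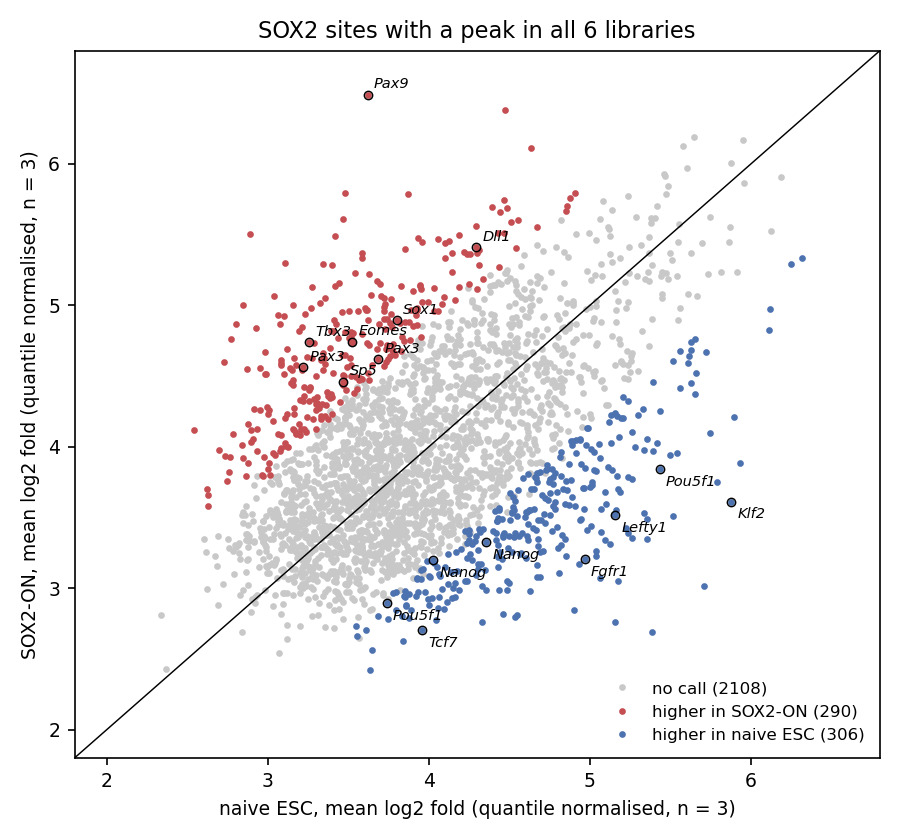
Mean log2 fold after quantile normalisation of the 2704 SOX2 sites with a peak in all 6 libraries, naive ESC on the horizontal and SOX2-ON on the vertical axis (n = 3 each), with sites past the limma threshold coloured and the diagonal marking equal values. The 290 red and 306 blue sites flank the diagonal, and sites of Pou5f1, Nanog, Klf2, Lefty1 and Fgfr1 lie on the naive ESC side while those of Pax9, Dll1, Sox1, Pax3 and Tbx3 lie on the SOX2-ON side.

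Sites were given to the protein-coding gene with the nearest start within 100000 bp, and 14564 genes had at least 1 site. Of these, 1426 (9.79%) had a site only in SOX2-ON, 1357 (9.32%) a site only in naive ESC and 1788 (12.3%) a shared site. Both kinds of condition-specific site were present at 137 genes (0.941%), which is 9.61% of the SOX2-ON genes and 10.1% of the naive ESC genes. Among the 1788 genes with a shared site, 214 (12%) had one higher in SOX2-ON and 262 (14.7%) one higher in naive ESC. Genes of 10 lists were counted against these shares. With sites given to the gene body and 10000 bp upstream instead, 8.87% of 13907 genes had a site only in SOX2-ON and 7.97% one only in naive ESC. Without naive ESC replicate 1, 11.5% and 21.6% of 13579 genes had one within 100000 bp. The gene body assignment moved 14 of 20 list counts by over 1.5 times and leaving out that library 5 of 20, so the counts of single lists are not stable. Listed genes had a median of 3.5 to 11.5 sites per gene by list, 10 for naive pluripotency, against 2 over all genes, and a gene with more sites has more chances to hold one of any class.

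Naive pluripotency genes carried sites of naive ESC. Of 14 genes, 9 had a site only in naive ESC and 1 a site only in SOX2-ON. Of their 136 sites 12 (8.82%) were only in naive ESC and 1 (0.735%) only in SOX2-ON, where all genes had 3.14% and 3.34%. Without naive ESC replicate 1 the counts of genes were 13 and 1 of 14, against 21.6% and 11.5% of all genes. By gene body and upstream region they were 5 and 0 of 14. The site of Esrrb (ENSMUSG00000021255.17), an orphan nuclear receptor of the naive network, lay in its intron at chr12:86501368-86502471, with folds of 42.7, 22.3 and 22.8 in naive ESC and weak peaks of 5.27 and 4.13 in the full lists of SOX2-ON replicates 2 and 3. Near Prdm14 (ENSMUSG00000042414.7), a repressor of epiblast genes, the folds were 38.1, 31.5 and 32.8 in naive ESC, at chr1:13084515-13085602, with β-catenin and TCF7L1 in every naive ESC library and no SOX2-ON library. The full lists of SOX2-ON replicates 1 and 3 held this site at 4.90 and 7.19. Near Zfp42 (ENSMUSG00000051176.6), which encodes the pluripotency marker REX1, the site 13811 bp from the start had 22.5, 33.4 and 33.0, and the full lists of SOX2-ON replicates 2 and 3 held it at 5.05 and 6.77. Other genes with a site only in naive ESC were Klf4, Klf5, Tfcp2l1, Tbx3, Nr0b1 and Dppa3.

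Some shared sites of naive pluripotency genes differed, in both directions. Of the 11 genes with a shared site, 3 had one higher in naive ESC and 1 had one higher in SOX2-ON. Over all genes with a shared site these shares were 14.7% and 12%. The strongest sites of Klf2, Klf4, Klf5, Tbx3, Nr5a2, Dppa3, Tcl1 and Tdh were shared sites that did not pass the threshold. The site 15392 bp from Klf2 (ENSMUSG00000055148.7), a Krüppel-like factor of the naive network, gave 60.1, 71.9 and 54.2 in naive ESC and 8.15, 15.7 and 11.0 in SOX2-ON, at chr8:72333352-72334727, a log2 difference of -2.27 (SE 0.31, limma adjusted p = 1.83e-05). At Nanog, a homeobox factor of pluripotency, the site 57 bp from the start gave 26.6, 21.0 and 19.4 in naive ESC and 11.7, 7.01 and 9.10 in SOX2-ON (log2 difference -1.03, limma adjusted p = 0.0159). A second Nanog site 4440 bp from the start was also higher in naive ESC, by -0.83. The site only in SOX2-ON, 8528 bp from the start of Nanog, had 10.3, 11.4 and 20.4 and was listed at 6.54, 5.26 and 4.44 in the full naive ESC lists. A site of Tdh, the threonine dehydrogenase of naive cells, was higher in naive ESC. In the other direction, the site 35703 bp from Tbx3, a T-box factor, gave 22.2, 22.7 and 29.7 in SOX2-ON and 17.9, 7.37 and 7.25 in naive ESC (log2 difference 1.48, limma adjusted p = 0.00138).

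Core pluripotency genes, which stay on in the early epiblast, gave 4 of 8 genes with a site only in naive ESC and 0 with a site only in SOX2-ON. Over all genes these shares were 9.32% and 9.79%. The 4 genes with a site only in naive ESC were Sox2, Sall4, Fgf4 and Jarid2. Of the 90 sites of the list 5.56% were only in naive ESC and 0 only in SOX2-ON, where all genes had 3.14% and 3.34%. By gene body and upstream region the counts were 1 and 1 of 7 genes, against 7.97% and 8.87% of all genes. Without naive ESC replicate 1 they were 4 and 0 of 8 by nearest start, against 21.6% and 11.5%. The site 94963 bp from Sox2 had folds of 12.2, 13.0 and 13.0 in naive ESC and no peak in any SOX2-ON list. Beyond the 100000 bp limit lay others nearest to Sox2, named after their values were seen, the strongest of them at chr3:34757786-34758338, 107673 bp away, with a median fold of 24.9 in naive ESC and no peak in any SOX2-ON list. At Pou5f1, which encodes OCT4, the shared site 1969 bp from the start, at chr17:35503652-35504381, gave 63.3, 42.5 and 36.1 in naive ESC and 12.4, 10.2 and 17.6 in SOX2-ON, a log2 difference of -1.59 (SE 0.31, limma adjusted p = 0.00063). It holds an OCT-SOX element and had a SOX2 peak in 3 of 3 CEpiLC and 3 of 3 SOX2-OFF libraries. A second Pou5f1 site (-0.84) and shared sites of Utf1 and Jarid2 were likewise higher in naive ESC. Shared sites of Sall4 (1.06) and of Lin28a, an RNA-binding protein (1.09), were higher in SOX2-ON.

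Primed epiblast and neural progenitor genes had sites of both conditions. Of 12 primed epiblast genes 5 had a site only in SOX2-ON and 2 a site only in naive ESC, and of 16 neural progenitor genes 5 and 1. Counted by sites, 8.75% of the 80 primed sites were only in SOX2-ON and 3.75% only in naive ESC, and 4.24% and 0.847% of the 118 neural sites, where all genes had 3.34% and 3.14%. The neural share of SOX2-ON was thus near that of all genes, and the neural genes had a median of 7 sites against 2. Without naive ESC replicate 1 the gene counts were 5 and 2, and 5 and 3, against 11.5% and 21.6% of all genes. By gene body and upstream region they were 2 and 0 of 10, and 3 and 2 of 16, against 8.87% and 7.97%. The site 2518 bp from Sall2 (ENSMUSG00000049532.11), a zinc-finger factor, had folds of 15.5, 17.1 and 19.8 in SOX2-ON, at chr14:52330867-52331590, and was listed in 1 full naive ESC list at 4.24. The site only in SOX2-ON of Otx2, a homeobox factor of the anterior epiblast, had 9.35, 13.0 and 13.1 at 49107 bp, while the shared site 204 bp from its start was higher in naive ESC (22.5, 24.7 and 29.2 against 11.0, 8.66 and 13.0). Sox3, Sox4 and Dnmt3a were the other primed genes with a site only in SOX2-ON, and Foxd3 and Dnmt3a had one only in naive ESC.

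The neural genes with a site only in SOX2-ON were Sox1, Pax6, Pax3, Six3 and Neurog2. The Pax6 site lay in an intron of Elp4, 51808 bp from the start of Pax6 at chr2:105727611-105728400, with folds of 14.7, 17.1 and 12.4 in SOX2-ON and no peak in any naive ESC list. The Pax3 site lay in its own intron with 17.2, 15.3 and 11.7, and the full list of naive ESC replicate 1 held it at 6.92. Neurog2, a proneural factor, had 15.1, 16.8 and 9.69 at a site 5688 bp away, also listed in naive ESC replicate 1, at 4.27. Shared sites of Sox1 (log2 difference 1.1, limma adjusted p = 0.0116) and of Pax3 (1.34 and 0.94) were higher in SOX2-ON. Hesx1, a homeobox repressor of the forebrain, was the neural gene with a site only in naive ESC, at 186 bp from its start, with 14.3, 14.8 and 10.6.

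WNT pathway genes had sites of both conditions, with 4 of 17 genes on each side by nearest start, and 4 for SOX2-ON and 2 for naive ESC by gene body and upstream region. Of their 155 sites 3.23% were only in SOX2-ON and 2.58% only in naive ESC, near the shares of all genes. Axin2, a negative regulator and direct target of WNT signalling, had both. Its site 9438 bp from the start had folds of 7.15, 10.9 and 8.64 in SOX2-ON, and its site 550 bp from the start had 12.3, 7.26 and 6.97 in naive ESC. Both were weak, and the second was listed in all full SOX2-ON lists at 4.16 to 5.00. Nkd1, another feedback inhibitor, had a site only in SOX2-ON at chr8:88512206-88512817 with 11.5, 7.25 and 18.7, where β-catenin and LEF1 had peaks in 3 of 3 SOX2-ON libraries and in no naive ESC library. Its shared site 70072 bp away was also higher in SOX2-ON (log2 difference 1.08, limma adjusted p = 0.0109). Notum, which inactivates WNT proteins, had a site only in naive ESC with 27.7, 28.9 and 21.9 and β-catenin in 3 of 3 naive ESC and 0 of 3 SOX2-ON libraries. The full lists of SOX2-ON replicates 1 and 3 held it at 4.71 and 4.84. Sp5, a zinc-finger target of WNT, showed both kinds. The site 10093 bp away had 24.9, 25.7 and 10.8 in naive ESC and no peak in SOX2-ON, and the shared site 29 bp from its start, which held all 4 mediators in 3 of 3 SOX2-ON libraries and all but LEF1 in 3 of 3 naive ESC libraries, was higher in SOX2-ON (0.99, limma adjusted p = 0.026). Znrf3 and Tcf7l1 had a site only in SOX2-ON, Ctnnb1 had one only in naive ESC, and a shared site of Tcf7 was higher in naive ESC (-1.25).

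Of 12 FGF and ERK feedback genes 4 had a site only in SOX2-ON, which were Spry2, Dusp6, Etv1 and Etv5, and 2 had one only in naive ESC, which were Etv5 and Spred2. By gene body and upstream region 3 genes had each kind. Of the 147 sites of the list 3.40% were only in SOX2-ON, near the 3.34% of all genes, and 1.36% only in naive ESC. The shared site 63534 bp from Fgfr1, a receptor of FGF, gave 25.9, 39.8 and 40.6 in naive ESC and 6.35, 10.7 and 8.92 in SOX2-ON (log2 difference -1.76, limma adjusted p = 0.000203). In the Nodal pathway 0 of 8 genes had a site only in SOX2-ON and 2 had one only in naive ESC, as 0 and 2 of 7 did by gene body and upstream region. Of its 43 sites 4 (9.30%) were only in naive ESC, where all genes had 3.14%. Smad7, with 20 of the 43 sites, held 3 of the 4, and Nodal held 1, so the share rests largely on 1 gene. The Nodal site 1796 bp from its start had 13.6, 24.0 and 15.3 in naive ESC, and the full SOX2-ON lists held it at 4.48, 5.68 and 4.53. The shared site of Lefty1, an inhibitor of Nodal, gave 26.9, 49.1 and 44.6 in naive ESC and 9.27, 6.84 and 18 in SOX2-ON (log2 difference -1.64, limma adjusted p = 0.000688). At the shared sites of Fgfr1 and Lefty1, named because they passed the threshold, SOX2-ON values stayed below all naive ESC values.

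Genes of the caudal epiblast gave 1 of 16 on each side, Fgf8 with a site only in SOX2-ON (6.68, 16.8 and 10.6) and Evx1 with one only in naive ESC. The strongest site of Cdx2, a homeobox factor of the caudal epiblast, was shared and lay in its intron, with 45.9, 22.7 and 31.1 in SOX2-ON and 17.6, 26.6 and 27.3 in naive ESC. The groups overlapped (log2 difference 0.71, limma adjusted p = 0.114). The strongest site of T, which encodes the primitive streak factor BRA, gave 10.5, 17.8 and 18.8 against 14.0, 13.8 and 14.5 (log2 difference 0.40, limma adjusted p = 0.358). Primitive streak and mesoderm genes gave 2 of 11 on each side, and extraembryonic genes 2 of 9 on each side. By sites, 1.61% of the caudal ones were of each condition alone, 4.92% of the streak ones of SOX2-ON and 3.28% of naive ESC alone, and 2 of 50 extraembryonic ones of each. By gene body and upstream region the gene counts were 2 and 1 of 15 for caudal, 1 and 1 of 10 for streak and 0 and 0 of 7 for extraembryonic genes. Several of these small counts also changed when naive ESC replicate 1 was left out, which eases the rule for sites of naive ESC. Without it the genes with a site only in SOX2-ON and only in naive ESC were 5 and 5 of 17 for WNT, 6 and 5 of 12 for FGF and ERK, 0 and 3 of 8 for Nodal, 2 and 1 of 16 for caudal, 3 and 5 of 11 for streak and 2 and 4 of 9 for extraembryonic genes, against 11.5% and 21.6% of all genes. Shared sites of Eomes, a T-box factor of the streak (1.22), and of the Notch ligand Dll1 (1.12) were higher in SOX2-ON. The Dll1 site gave 38.9, 36.9 and 43.2 in SOX2-ON and 23.8, 21.5 and 19.1 in naive ESC.

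**Figure D4:**
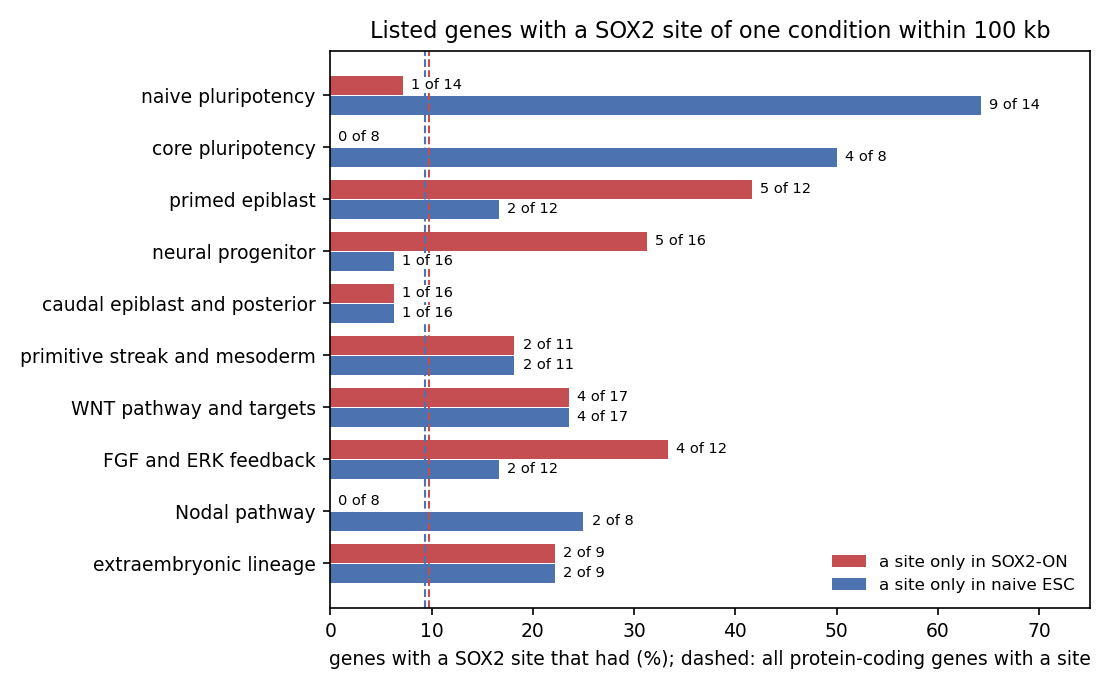
Percentage of the genes of each list, among those with any SOX2 site within 100000 bp, that had a site only in SOX2-ON (red) or only in naive ESC (blue), with the counts beside the bars and dashed lines at the same shares over all protein-coding genes with a site, 9.79% and 9.32%. Naive pluripotency has 9 of 14 genes in blue and 1 of 14 in red, and neural progenitor has 5 of 16 in red and 1 of 16 in blue.

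The WNT mediators were profiled in the same 2 conditions, in libraries that had no part in choosing the SOX2 sites. All lists of a target were cut to equal length, which left 3423 peaks per β-catenin library, 4443 per LEF1, 1626 per TCF7L1 and 4131 per TCF7L2 library. β-catenin overlapped 17.0%, 14.7% and 11.8% of sites only in SOX2-ON in the SOX2-ON libraries, and 0.577%, 0.577% and 0.346% of them in the naive ESC libraries. At sites only in naive ESC it overlapped 26.5%, 25.2% and 27.2% in the naive ESC libraries and 1.61%, 2.38% and 2.82% in the SOX2-ON libraries. Shared SOX2 sites were overlapped to a like extent by all 6, from 38.2% to 41.8%. Each β-catenin library thus overlapped a larger share of the sites of its own condition than of the other. The size of these shares depends on the cut to 3423 peaks, so that they are a minority is not a result.

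The preference was summarised as the log2 odds that a library overlapped sites only in SOX2-ON minus those for sites only in naive ESC. For β-catenin it was 2.87 ± 0.720 (SD, n = 3) in SOX2-ON and -6.13 ± 0.469 (SD, n = 3) in naive ESC, a difference of 9.01. It was 2.56 ± 0.310 and -6.34 ± 0.505 for TCF7L1, a difference of 8.89. TCF7L2 gave 1.65 ± 0.138 and -3.64 ± 0.897, a difference of 5.29. LEF1 gave 3.64 ± 1.47 and -3.13 ± 2.01, a difference of 6.77. For each target all SOX2-ON libraries lay above 0 and all naive ESC libraries below, and each comparison reached the smallest p of its two-sided exact permutation test (p = 0.1, adjusted p = 0.1 over 4 targets). With all deposited peaks in place of the shortened lists the differences were smaller in size and had the same direction, 6.93 for β-catenin, 7.22 for TCF7L1, 3.47 for TCF7L2 and 3.80 for LEF1, each at the same smallest p of the exact permutation test. LEF1 varied most between libraries. Its SOX2-ON libraries overlapped 9.35%, 25.5% and 7.97% of sites only in SOX2-ON, and its naive ESC libraries 0.277%, 23.4% and 6.42% of sites only in naive ESC. Naive ESC LEF1 replicate 1 rested on 4 and 5 overlapped sites, and also had a peak at only 1.18% of shared sites.

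**Figure D5:**
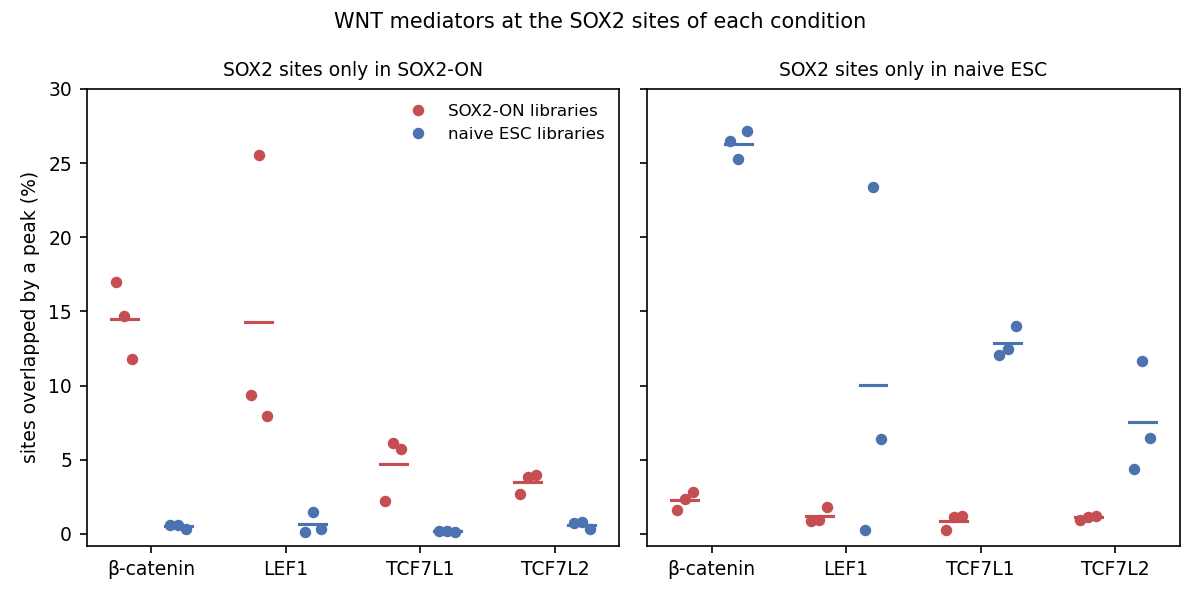
Percentage of the SOX2 sites only in SOX2-ON (left) and only in naive ESC (right) overlapped by a peak of each WNT mediator library, with 1 point per library and bars at the mean of 3. For β-catenin, SOX2-ON libraries sit between 11.8% and 17.0% on the left and between 1.61% and 2.82% on the right, and naive ESC libraries sit at most at 0.577% on the left and between 25.2% and 27.2% on the right.

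Overlap was partial in the shortened lists, on which all counts of this paragraph rest. None of the 6 shortened β-catenin lists held a peak at 76.1% of sites only in SOX2-ON and at 64.7% of those only in naive ESC. The full β-catenin lists held from 39154 to 461476 peaks, so absence from the 3423 strongest is not absence of signal. At 158 sites only in SOX2-ON (6.08%) β-catenin had a peak in 3 of 3 SOX2-ON and 0 of 3 naive ESC libraries, and at 0 sites the reverse. At 260 sites only in naive ESC (14.4%) it had a peak in 3 of 3 naive ESC and 0 of 3 SOX2-ON libraries, and again at 0 sites the reverse. TCF7L1 gave 22 and 145 such sites. At shared sites the shares with β-catenin went with the direction of SOX2 strength in both conditions. β-catenin had a peak in 3 of 3 SOX2-ON libraries at 48.6% of shared sites higher in SOX2-ON, at 15.7% of those higher in naive ESC and at 27.2% of the rest. In 3 of 3 naive ESC libraries it had one at 18.6%, 52.6% and 29.4%. The same order of classes held for TCF7L1, with 17.6%, 2.61% and 8.87% in 3 of 3 SOX2-ON libraries and 10.7%, 31.7% and 17.2% in 3 of 3 naive ESC libraries. LEF1 gave 30.0%, 2.61% and 11.5% in SOX2-ON, and TCF7L2 gave 14.1% of those higher in SOX2-ON and 2.94% of those higher in naive ESC. In naive ESC the classes differed little for TCF7L2, with 5.86%, 7.52% and 5.83%. For LEF1 they gave 0.690%, 1.31% and 0.617%. Naive ESC LEF1 replicate 1 had a peak at only 1.18% of shared sites, so a count over 3 of 3 libraries cannot compare the classes for LEF1. SOX2 and the mediators were immunoprecipitated separately, and binding of both proteins to the same molecule of DNA cannot be read from them.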

How the data were processed

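Binding was measured by ChIP-seq, on cells fixed with a protein cross-linker and formaldehyde, in 6 SOX2 libraries (3 SOX2-ON, 3 naive ESC), with 24 libraries of the WNT mediators and 6 SOX2 libraries of cells with low SOX2 beside them. Per the study's methods, the authors ran the nf-core ChIP-seq pipeline, with BWA for alignment and MACS (MACS2 in the submitters' processing notes) for peaks at a q-value under 0.05, on mm10. Peaks were called per library. The input used for each library is not stated in the paper or labels. Each deposited list gives, per peak, a score (10 times the −log10 q-value), the deposited fold (a ratio of signal to local background), the deposited −log10 p-value, the deposited −log10 q-value and the summit. The authors tested read counts, which were not used here.

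Lists were shortened to 20000 peaks per SOX2 library by −log10 p, and peaks sharing at least 1 bp were merged. A site's fold in a library is the highest of its peaks there. Shared sites were tested with limma 3.58.1 (R 4.3.3) on log2 fold after quantile normalisation, with Benjamini-Hochberg adjustment over the 2704 shared sites, and the script was tested on simulated data with known differences. Other group comparisons were exact permutation tests over libraries (Python 3.11.15, numpy 2.4.6, pandas 2.3.3, scipy 1.17.1). The index of mediators added 0.5 to each count. Sequences and gene models came from GRCm38 (RefSeq genome, GENCODE M21), and plots from matplotlib 3.10.9. The sites named are the strongest site of each listed gene and its condition-specific and differing shared sites, the 5 sites per condition with the highest median fold and no peak in the other condition's full lists, and the 5 shared sites per direction with the largest log2 difference past the threshold, of which some are not reported here. Members, gene lists and motifs were chosen with earlier results of these data known. Same-numbered replicates did not deviate together (correlations over shared sites of 0.0330, 0.0133 and -0.0248), so libraries were not treated as pairs. Alternatives tried were other list lengths, all peaks, ranking by fold, other overlaps and windows, other scaling, a replicate block and leaving out each library. Choosing sites without naive ESC replicate 1 was added after the data had been seen.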

Additional observations from a re-analysis of the deposited data

How the results depend on the processing

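Of the alternatives tried for the main comparisons, 192 kept direction and side of the threshold or, for counts, stayed within 1.5 times, 19 changed a count or value by more than the limits set, and 3 reversed a direction. The exact permutation tests cannot go below p = 0.1, so for them only a change of direction could be counted. The 192 include the OCT element without naive ESC replicate 3, where the difference was 0. Of the 192, 38 still changed in size by over 1.5 times. Among them, the difference in overlap between libraries was 0.201 with 2000 peaks and 0.0329 with all peaks, the mediator index fell to 3.80 for LEF1 and 3.47 for TCF7L2 with all peaks, and AAGGTCA differed by -2.19 percentage points within 50 bp and -6.97 with 2000 peaks. With 2000 peaks per library there were 425 sites only in SOX2-ON, 368 only in naive ESC and 323 shared, with 10000 there were 1684 only in SOX2-ON and 1658 shared, and with all deposited peaks there were 6444 only in naive ESC and 9149 shared. Required to be absent from the full lists of the other condition, 635 and 706 sites remained, a construction that removes sites. Shared sites higher in SOX2-ON and in naive ESC numbered 169 and 185 with 10000 peaks and 771 and 795 with all peaks, as fewer or more sites were tested. The index of the libraries with low SOX2 became 0.416 in CEpiLC and 0.485 in SOX2-OFF when sites were chosen without naive ESC replicate 1, an alternative added after the data had been seen, and the cause was not tested.

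The reversed directions were the number of peaks without naive ESC replicate 1 (0.0372 on the log10 scale), the promoter share with 2000 peaks (-2.02 percentage points) and the OCT element without naive ESC replicate 2 (0.0725 percentage points). The cause was not tested for the last of these. Leaving out each library in turn gave 2887 to 4033 sites only in SOX2-ON, 1992 to 4457 only in naive ESC and 2832 to 3669 shared. Peaks were then required in fewer libraries, which by itself raises these counts. Among the shared sites of each choice, 171 to 342 were higher in SOX2-ON and 202 to 363 higher in naive ESC. The range was -0.427 to 0.0372 for the number of peaks and -0.718 to 0.0725 for the OCT element.

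With the replicate block, limma called 251 shared sites higher in SOX2-ON and 262 higher in naive ESC, against 290 and 306 without the block. Same-numbered libraries shared only a number, with correlations of 0.0330, 0.0133 and -0.0248, and not every library correlated best with its own number. Depth is unknown, so a site missing from a list cannot be told from one not detected.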

Other observations

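Some genes had several sites of 1 condition within 100000 bp. These genes were picked after their counts were seen, and nothing was tested on them. Zfhx3, a homeobox and zinc-finger factor, and Zfp608 each had 5 sites only in SOX2-ON, and Chl1, a neural cell adhesion molecule, Psd3 and Tox3 each had 4. None of the 5 had a site only in naive ESC. Frzb, a secreted inhibitor of WNT proteins, had 3 sites only in SOX2-ON. On the other side, Actr2, Akap1, Sik1 and Tns3 each had 4 sites only in naive ESC. Tns3, a tensin of cell adhesions, also had 1 site only in SOX2-ON and 4 shared sites.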
